A study of Mus musculus with 12 samples.

Results

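The genes described here encode enzymes that break down sugars and fats for energy or build and modify lipids, together with cytochromes P450 and carboxylesterases. They were chosen by gene symbol alone: a fixed set of symbol patterns was applied to every gene that had a value in all 12 samples and a probe assigned to 1 gene, and clones of the same gene were averaged. The patterns kept 67 of 6427 measured genes, read by 108 spotted cDNA clones. Of these genes, 40 rested on 1 clone and 27 on several, with at most 6 (Idh3a). By role, 12 genes act in glycolysis and lactate metabolism, 2 in the pyruvate dehydrogenase complex, 9 in or beside the citrate cycle, 10 in fatty acid oxidation, 8 are acyl-CoA synthetases or thioesterases, 5 are fatty acid desaturases or elongases, and 1 is a synthase of the sterol pathway. A further 7 are aldehyde dehydrogenases, 9 are cytochromes P450 and 2 are carboxylesterases. Symbols Pga5 (a pepsinogen) and Pgam5 (a mitochondrial protein phosphatase) fit the patterns without belonging to glycolysis, so they were kept apart as matched by symbol only.

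Whole brains came from 10-day-old C57Bl/6j mice of 3 genotypes, with 4 biological replicates in each: mice lacking both copies of Gja9 (Gja9_null), mice lacking 1 copy (Gja9_het), and wildtype mice. Gja9 is an older name of Gjd2, the gene of connexin36, which forms the gap junctions of electrical synapses between neurons. The labels do not describe how the allele was made. No measured probe was named for the targeted gene (0 of 13443), so its loss could not be read from these arrays. Samples of the same genotype were hybridised together in 2 colours, and each genotype therefore lay on 2 arrays of the 6. In the lists of values, samples 1 and 2 are taken to share the first array of their genotype and samples 3 and 4 the second. The labels do not give this sharing, which was read from the samples whose values moved together. A value is the log2 of a clone's signal over the mean signal of its sample, so 0 is the mean signal and negative values lie below it.

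In the brain, glucose is the main fuel: glycolysis turns it into pyruvate, which is either reduced to lactate or carried into mitochondria, where pyruvate dehydrogenase feeds it to the citrate cycle. Fatty acids are activated to acyl-CoA by synthetases, and are then either oxidised in mitochondria, to a large extent in astrocytes, or lengthened and desaturated for membranes and myelin. Cytochromes P450 are haem enzymes that oxidise sterols, fatty acids and foreign compounds. Carboxylesterases hydrolyse esters, and many members of both families are best known from the liver.

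Promoters are shown for 4 genes of the P450 and carboxylesterase families. These are the 2 carboxylesterase genes and the 2 P450 genes of smallest unadjusted p in Gja9_null against wildtype. Of the 4, only Ces2a passed the test described below. Each line gives the 250 bases before the start of the gene, 5′ to 3′ on the strand of the gene, from RefSeq on build GRCm38.p6. Capitals mark matches, on either strand, to 4 motifs: CCAAT, the GC box GGGCGG, the TATA box TATAAA and the sterol response element TCACNCCAC. No motif match overlaps another in these 4 windows. Ces2a starts after chr8:104733753-104734002 on the plus strand and Ces3b after chr8:105083505-105083754, also on the plus strand. Upstream of Cyp3a11 the window is chr5:145879855-145880104 and upstream of Cyp4v3 chr8:45333164-45333413, both on the minus strand.
Ces2a: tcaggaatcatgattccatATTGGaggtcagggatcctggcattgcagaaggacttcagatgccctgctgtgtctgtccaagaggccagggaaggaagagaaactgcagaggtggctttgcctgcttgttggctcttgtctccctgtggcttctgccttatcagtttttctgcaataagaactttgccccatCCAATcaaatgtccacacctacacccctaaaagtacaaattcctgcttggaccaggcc
Ces3b: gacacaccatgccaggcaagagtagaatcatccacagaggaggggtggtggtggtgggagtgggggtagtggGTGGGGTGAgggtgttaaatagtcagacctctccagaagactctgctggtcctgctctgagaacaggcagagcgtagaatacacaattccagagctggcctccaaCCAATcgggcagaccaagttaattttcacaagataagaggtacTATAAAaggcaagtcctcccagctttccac
Cyp3a11: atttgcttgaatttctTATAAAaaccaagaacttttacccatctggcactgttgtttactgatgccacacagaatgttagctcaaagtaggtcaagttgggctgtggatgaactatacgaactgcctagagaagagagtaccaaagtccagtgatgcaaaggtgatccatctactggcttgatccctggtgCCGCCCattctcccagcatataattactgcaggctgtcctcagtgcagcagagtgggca
Cyp4v3: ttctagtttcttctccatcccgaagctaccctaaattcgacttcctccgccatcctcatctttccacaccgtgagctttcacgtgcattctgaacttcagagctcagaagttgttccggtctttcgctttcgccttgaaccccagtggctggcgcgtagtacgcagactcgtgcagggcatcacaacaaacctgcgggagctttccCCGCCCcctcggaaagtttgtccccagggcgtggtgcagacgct

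The Ces2a window holds CCAAT on both strands, at bases 193 to 197 and, on the other strand, 20 to 24, counted from its 5′ end. Ces3b has a sterol response element at bases 73 to 81 and a TATA box at bases 221 to 226, and the TATA match of Cyp3a11 lies at bases 17 to 22. Of 32851 mouse promoters of this length, 33.9% hold CCAAT, 32.7% the GC box, 12.4% TATAAA and 1.05% the sterol response element. For 57 of the 67 enzyme genes 70 promoters were found, of which 30 had CCAAT, 35 the GC box, 4 TATAAA and 4 the sterol response element (Aldh9a1, Ces3b, Hmgcs1 and Pkm). A match is only a run of letters, and binding was not measured.

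Across the 67 genes, 1 difference passed the test: Ces2a, a carboxylesterase gene, fell in Gja9_null relative to Gja9_het. Differences were tested with limma over all 9514 features (the genes and the single probes without 1 gene), and an adjusted p under 0.05 after Benjamini-Hochberg adjustment was called. Between Gja9_null and Gja9_het, 0.273% of all features were called. Between Gja9_null and wildtype 0 of the 67 genes were called, against 0.326% of all features, and the smallest adjusted p of the 67 was 0.109. Between Gja9_het and wildtype 0 were called, as were 0% of all features. The 3 comparisons share samples with each other and are given side by side.

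In the values as deposited, most of the enzyme genes, like most features, lay lower in Gja9_null. Against wildtype, 44 of the 67 differences lay below 0 (58.9% of all features did), with a median of -0.17 log2 units beside -0.10 over all features. Against Gja9_het, 48 of 67 lay below 0 (63.1% of all features), with a median of -0.25 beside -0.17. Gja9_het differed from wildtype by a median of 0.09, beside 0.03 over all features, and 22 of 67 lay below 0 (45.6%). At an unadjusted p under 0.05, 7 genes were lower and 0 higher in Gja9_null than in wildtype, or 10.4% lower beside 9.22% of all features (2.41% of all features were higher). In Gja9_null against Gja9_het 9 were lower and 0 higher, or 13.4% lower beside 11.3% (3.64% of all features were higher). In Gja9_het against wildtype 0 were lower and 0 higher, beside 0.515% and 1.67% of all features. At this threshold the shares of lower genes in Gja9_null lie near those of all features. After centring every sample on the local median along the probe numbers (local centring), 33 of 67 differences lay below 0 in Gja9_null against wildtype, 30 in Gja9_het against wildtype and 37 in Gja9_null against Gja9_het. The medians over all features were then -0.011, 0.006 and -0.021. In Gja9_null against wildtype, 13 differences turned from below to above 0 and 2 the other way, so the majority below 0 was not kept.

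**Figure D1:**
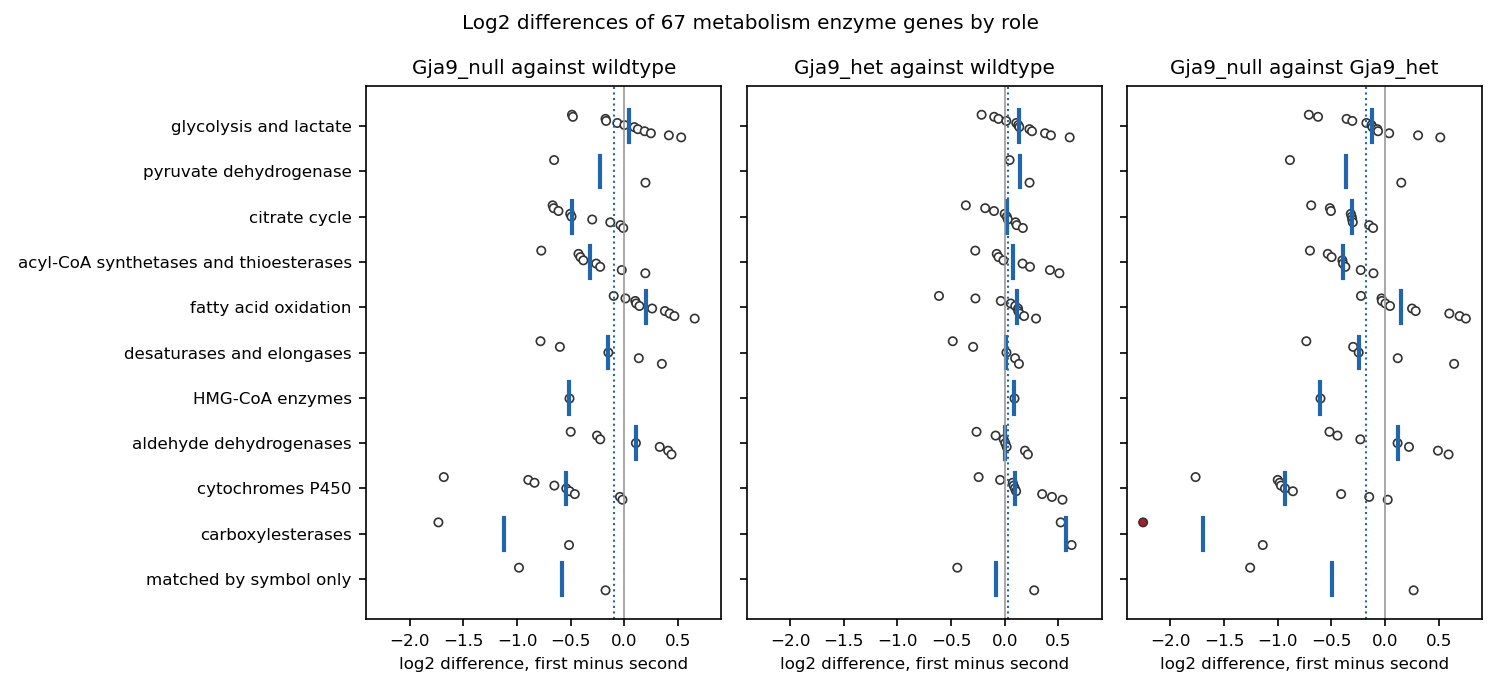
Each circle is 1 of 67 enzyme genes, placed by its log2 difference between genotypes (horizontal axis, first genotype minus second) and its role (rows), with a blue bar at the median of the role and a dotted line at the median of all features. The filled circle is Ces2a at -2.25 in Gja9_null against Gja9_het, the 1 difference that passed the test, and the circles of the P450 row lie mostly left of 0 in both comparisons of Gja9_null.

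The carboxylesterases, with 2 genes, gave the lowest role median in both comparisons of Gja9_null, at -1.12 against wildtype and -1.70 against Gja9_het. Their median was the highest of the roles in Gja9_het against wildtype, at 0.57. Ces2a encodes an esterase of the endoplasmic reticulum that cleaves ester drugs and acylglycerols. Its log2 signals were -4.32, -4.26, -3.56 and -3.34 in Gja9_null, -1.85, -1.84, -1.42 and -1.35 in Gja9_het, and -2.71, -2.82, -1.53 and -1.50 in wildtype. All 4 Gja9_null samples lay below every Gja9_het and every wildtype sample. The mean was -3.87 ± 0.50 in Gja9_null, -1.62 ± 0.27 in Gja9_het and -2.14 ± 0.72 in wildtype (SD, n = 4 samples on 2 arrays each). Ces2a fell by -2.25 ± 0.41 log2 units in Gja9_null relative to Gja9_het (SE, adjusted p = 0.0394), a signal 4.77-fold higher in Gja9_het. Against wildtype the difference was -1.73 ± 0.41 for Gja9_null, with an adjusted p of 0.109, and 0.52 ± 0.41 for Gja9_het, with an adjusted p of 1, so neither passed. A genotype changes only between arrays, yet both colours of an array add to the degrees of freedom of this test.

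The Ces2a call depended on the processing. With the colours of each array averaged, the adjusted p in Gja9_null against Gja9_het was 0.0984. It was 0.0634 after median centring (difference -2.14) and 0.18 after quantile normalization (difference -1.61). Without the first Gja9_null array the difference was -1.83 with an adjusted p of 0.106. Leaving out single samples gave an adjusted p between 0.0469 and 0.0687, and the call was kept only without wildtype sample 2 or Gja9_null sample 4. Ces2a rests on 1 clone among the dimmest 25% of features and within the last 3 of 48 stretches of probe numbers. Over all features, 20 were called lower in Gja9_null than in wildtype, and 0 were when these stretches were left out. The 51 measured probes within 50 numbers of it had median deviations from their means of -0.60 and 0.11 on the Gja9_null arrays, 0.12 and 0.12 on the Gja9_het arrays and 0.01 and 0.20 on the wildtype arrays. Ces2a itself deviated by -1.75 and -0.91, 0.70 and 1.15, and -0.22 and 1.03 on the same arrays. After local centring, the difference was -1.90 against Gja9_het (adjusted p = 0.0193) and -1.40 against wildtype (adjusted p = 0.0481), and both were called.

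The genes whose values followed Ces2a most closely over the 12 samples, which share 6 arrays, were Tgfbr1 (Pearson r = 0.990), Llph (0.989) and Racgap1 (0.986). Their probes lie 22, 320 and 116 numbers from that of Ces2a. Among the enzyme genes, Idh1 (0.910), Cyp3a11 (0.904) and the pepsinogen Pga5 (0.896) came nearest. These correlations describe the samples and carry no test.

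Ces3b, a related esterase of the endoplasmic reticulum known from the liver, was likewise dim. It had log2 signals of -3.42, -3.45, -3.11 and -3.15 in Gja9_null, -2.68, -2.71, -1.57 and -1.62 in Gja9_het, and -3.43, -3.31, -2.18 and -2.15 in wildtype. Its Gja9_null samples lay below all Gja9_het samples and overlapped the first wildtype array. The difference was -1.14 ± 0.40 against Gja9_het (adjusted p = 0.213) and -0.52 ± 0.40 against wildtype (adjusted p = 0.669), and Gja9_het differed from wildtype by 0.62 ± 0.40. The Ces genes are a cluster of near copies in mouse, and a cDNA clone can bind transcripts of several, so the values of Ces2a and Ces3b may include other members.

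Among the 9 cytochrome P450 genes, 0 were called, but all 9 lay below 0 in Gja9_null against wildtype and 8 of 9 in Gja9_null against Gja9_het. Of all features, 58.9% and 63.1% lay below 0 in these comparisons. Role medians were -0.54 and -0.93, the lowest of any role with more than 2 genes, while Gja9_het differed from wildtype by a median of 0.09. The Gja9_null samples lay below all wildtype samples in 5 of 9 genes and below all Gja9_het samples in 6 of 9, where 15.6% and 22.5% of all features did so. At an unadjusted p under 0.05, 2 of the 9 were lower than wildtype (9.22% of all features) and 5 lower than Gja9_het (11.3% of all features). Both Gja9_null arrays were low, with P450 medians that deviated by -0.49 and -0.45, against 0.18 and 0.61 on the Gja9_het arrays and -0.12 and 0.36 on the wildtype arrays.

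Cyp4v3, whose human counterpart hydroxylates fatty acids and is linked to a corneal and retinal disease, had the widest differences of the family. Its log2 signals were -3.79, -3.81, -1.68 and -1.88 in Gja9_null, -1.51, -1.42, -0.55 and -0.62 in Gja9_het, and -1.10, -1.06, -1.29 and -0.98 in wildtype. All Gja9_null samples were below all others, and the 2 Gja9_null arrays lay 2.02 apart, the first being lower. Cyp4v3 differed by -1.68 ± 0.54 in Gja9_null against wildtype (adjusted p = 0.245) and by -1.77 ± 0.54 against Gja9_het (adjusted p = 0.159). Cyp3a11, a major drug-oxidising P450 of mouse liver, was the 1 member of the family in the brightest 25% of features. It had 0.24, 0.08, 0.45 and 0.12 in Gja9_null, 0.76, 0.82, 1.68 and 1.36 in Gja9_het, and 0.78, 0.57, 1.49 and 1.40 in wildtype. Gja9_null samples lay below every other sample, and the second arrays of Gja9_het and wildtype were above the first. Differences were -0.84 ± 0.38 against wildtype (adjusted p = 0.426) and -0.93 ± 0.38 against Gja9_het (adjusted p = 0.28). After local centring the second of these was -1.19 with an adjusted p of 0.0445, which is a call.

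Cyp2j5, an arachidonic acid epoxygenase, is read by 3 clones. Its log2 signals were -1.37, -1.49, -1.85 and -1.82 in Gja9_null, -0.96, -1.0, -0.46 and -0.68 in Gja9_het, and -1.10, -1.24, -1.17 and -0.98 in wildtype. Gja9_null was lowest throughout, with differences of -0.51 ± 0.34 against wildtype (adjusted p = 0.609) and -0.86 ± 0.34 against Gja9_het (adjusted p = 0.262). All 3 clones gave a negative difference in both, between -0.63 and -0.39 against wildtype and between -1.66 and -0.40 against Gja9_het. Cyp39a1 hydroxylates an oxysterol that the brain makes from cholesterol. It had -3.01, -3.14, -2.94 and -2.98 in Gja9_null, -1.73, -2.10, -2.05 and -2.27 in Gja9_het, and -2.31, -2.96, -2.11 and -2.53 in wildtype. Gja9_null lay below Gja9_het and overlapped the lowest wildtype sample, with differences of -0.98 ± 0.41 (adjusted p = 0.288) and -0.54 ± 0.41 (adjusted p = 0.659), and Gja9_het differed from wildtype by 0.44 ± 0.41.

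Cyp51, the sterol demethylase of cholesterol synthesis, had the widest gap between arrays in this family. Its log2 signals were -1.88, -1.72, -2.0 and -1.57 in Gja9_null, -1.12, -0.99, -0.56 and -0.49 in Gja9_het, and -2.48, -2.31, -0.31 and -0.22 in wildtype. The 2 wildtype arrays were 2.13 apart, the widest gap of any enzyme gene in wildtype, and enclosed all Gja9_null and Gja9_het samples. The difference was -1.0 ± 0.51 in Gja9_null against Gja9_het (adjusted p = 0.378), -0.46 ± 0.51 against wildtype and 0.54 ± 0.51 in Gja9_het against wildtype. Cyp2f2, a P450 of airway and liver, differed by -0.90 ± 0.45 in Gja9_null against wildtype and -0.97 ± 0.45 against Gja9_het, with no overlap in either. The pseudogene Cyp4b1-ps2 differed by -0.65 ± 0.31 from wildtype, but its probe lies in the last stretches and the difference was 0.13 after local centring. Cyp2e1 (-0.02 ± 0.56) and Cyp21a1 (-0.04 ± 0.29) gave the smallest differences of the family in Gja9_null against wildtype.

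**Figure D2:**
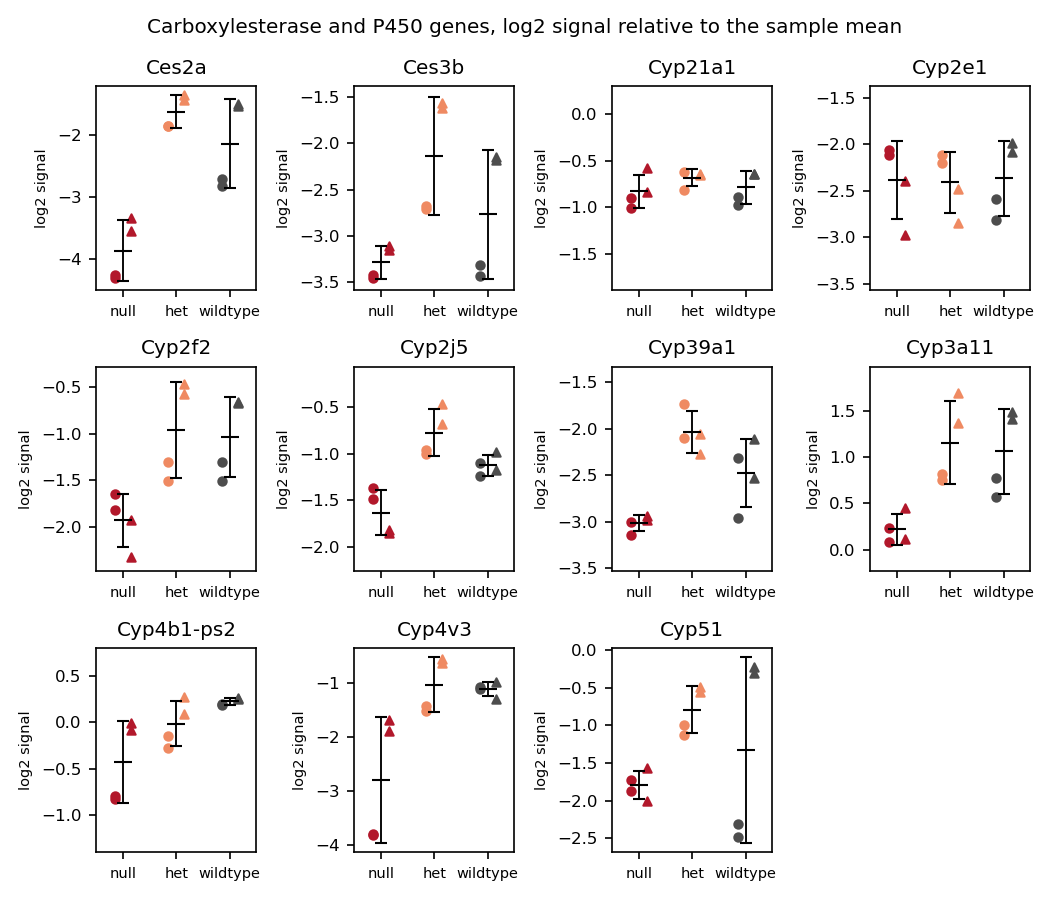
Log2 signal relative to the sample mean (vertical axis, own scale in each panel) of the 2 carboxylesterase and 9 P450 genes in the null (red), het (orange) and wildtype (grey) samples; circles are samples 1 and 2 (first array), triangles samples 3 and 4 (second array), and black bars the mean ± SD. The 4 null points of Ces2a, from -4.32 to -3.34, lie below all others, and the wildtype points of Cyp51 split by array.

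Liver markers were measured beside the P450 and carboxylesterase genes, since many of these are known from that tissue. Of 12 listed liver markers 4 were measured, with 0 called and 0 at an unadjusted p under 0.05, a median difference of 0.22 in Gja9_null against wildtype and 0.06 against Gja9_het. Their summed level, in multiples of the sample mean signal, was 2.31 to 2.86 in Gja9_null, 2.21 to 2.65 in Gja9_het and 1.68 to 2.52 in wildtype. Ttr, 1 of these 4 genes, is also the 1 measured choroid plexus marker, so the sum does not stand for liver alone. Its own level was 0.92 to 1.24 in Gja9_null and 0.51 to 1.06 in wildtype. Ttr had the highest difference of the 4 in Gja9_null against wildtype (0.50) and against Gja9_het (0.33). Alb, the serum albumin gene, differed by 0.17 ± 0.43 in Gja9_null against Gja9_het. In these whole-brain samples, fewer cells of a type and less RNA per cell cannot be told apart. Lower values also went with dim signal over the whole array, where the median of Gja9_null against Gja9_het was -0.40 in the dimmest 25% of features, -0.20 and -0.11 in the next 2 bins and -0.03 in the brightest 25%. The bins were cut on the mean over all 12 samples, the compared ones included. A feature low in Gja9_null is thereby moved toward a dimmer bin, so part of this order follows from the binning. Of the 9 P450 genes, 2 lie in the dimmest of these bins, 4 in the second, 2 in the third and 1 in the brightest, and both carboxylesterase genes lie in the dimmest. The part of signal in these differences was not tested.

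In the citrate cycle group, all 9 genes lay below 0 in Gja9_null against wildtype, with a median of -0.49, and all 9 in Gja9_null against Gja9_het, with a median of -0.31. Of all features, 58.9% and 63.1% lay below 0 in these comparisons. With limma 0 of the 9 genes were called in the 3 comparisons. An unadjusted p under 0.05 was reached by 2 (Sucla2 and Idh3b) in Gja9_null against wildtype and 0 in the others. Of all features, 9.22% were lower at this threshold in that comparison and 11.3% in Gja9_null against Gja9_het. Gja9_het differed from wildtype by a median of 0.02, with 4 of 9 below 0 (45.6% of all features). After local centring along the probe numbers, the group medians in these comparisons, in the same order, were -0.10, -0.02 and -0.06.

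Sucla2, a subunit of the ADP-forming succinyl-CoA ligase, had log2 signals of 0.12, 0.31, 0.64 and 0.83 in Gja9_null, 0.68, 0.71, 0.78 and 0.95 in Gja9_het, and 1.18, 1.16, 1.06 and 1.17 in wildtype. Wildtype was highest in every sample, Gja9_het came next, and the second Gja9_null array reached into the Gja9_het range. Differences were -0.67 ± 0.29 in Gja9_null (adjusted p = 0.397) and -0.36 ± 0.29 in Gja9_het (adjusted p = 1), both against wildtype. The 2 Sucla2 clones stood at -0.15 ± 0.32 and -1.19 ± 0.41 in Gja9_null against wildtype. Against Gja9_het they had opposite signs, at 0.19 ± 0.32 and -0.80 ± 0.41. Idh3b, a regulatory subunit of the NAD-dependent isocitrate dehydrogenase, had -0.69, -0.61, -0.18 and -0.06 in Gja9_null, 0.18, 0.15, 0.03 and 0.15 in Gja9_het, and 0.08, 0.07, 0.40 and 0.36 in wildtype. Gja9_null lay below both other genotypes, by -0.61 ± 0.29 against wildtype (adjusted p = 0.428) and -0.51 ± 0.29 against Gja9_het (adjusted p = 0.416). Of its 4 clones 2 lie in the last stretches of probe numbers, and after local centring the differences were 0.14 and 0.28, with the sign turned.

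Idh1, the cytosolic NADP-dependent isocitrate dehydrogenase, had -1.12, -0.91, -0.75 and -0.49 in Gja9_null, -0.31, -0.42, -0.31 and -0.20 in Gja9_het, and -0.40, -0.34, -0.26 and -0.25 in wildtype. Every Gja9_null sample lay below all others, with differences of -0.50 ± 0.32 against Gja9_het (adjusted p = 0.468) and -0.51 ± 0.32 against wildtype. Its 2 clones had opposite signs against Gja9_het, at 0.22 ± 0.38 and -1.23 ± 0.44, so the mean describes neither. Idh3a, the catalytic subunit of the same mitochondrial enzyme as Idh3b, had 0.79, 0.82, 0.84 and 0.98 in Gja9_null, 1.04, 1.08, 1.25 and 1.27 in Gja9_het, and 1.14, 1.12, 0.84 and 0.87 in wildtype. Gja9_het lay above all Gja9_null samples and reached the first wildtype array, and the difference from wildtype was 0.17 ± 0.26 in Gja9_het and -0.13 ± 0.26 in Gja9_null. The other 5 genes had differences in Gja9_null against wildtype of -0.66 (Aco1, cytosolic aconitase), -0.49 (Idh2), -0.30 and -0.04 (the mitochondrial and cytosolic malate dehydrogenases Mdh2 and Mdh1) and -0.01 (Idh3g). Aco1 had the widest array gap of all enzyme genes in Gja9_het, at 1.67.

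Glycolytic genes showed no common direction in Gja9_null against wildtype. Of 12, 6 lay above and 6 below 0, with a median of 0.05. The median was 0.13 in Gja9_het against wildtype, with 9 of 12 above 0, and -0.12 in Gja9_null against Gja9_het, with 9 of 12 below 0. Of all features, 45.6% and 63.1% lay below 0 in the last 2 comparisons. In any comparison, 0 of the 12 genes were called or had an unadjusted p under 0.05. These are bright genes, 9 of 12 being in the brightest 25% of features.

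Pkm, the pyruvate kinase of the last step, was the 1 glycolytic gene whose Gja9_null samples were above all others. It had 1.83, 1.90, 1.75 and 1.92 in Gja9_null, 1.19, 1.27, 1.42 and 1.45 in Gja9_het, and 1.41, 1.51, 1.17 and 1.19 in wildtype. The differences were 0.53 ± 0.26 against wildtype (adjusted p = 0.457) and 0.51 ± 0.26 against Gja9_het (adjusted p = 0.373). Ldha, which reduces pyruvate to lactate, had 1.66, 1.54, 1.97 and 1.67 in Gja9_null, 2.49, 2.34, 1.69 and 1.76 in Gja9_het, and 2.17, 2.16, 0.66 and 0.86 in wildtype. Its wildtype arrays lay far apart and on either side of all Gja9_null samples, and Gja9_het differed from wildtype by 0.61 ± 0.46. Pgk1, phosphoglycerate kinase, had 1.65, 1.66, 1.46 and 1.46 in Gja9_null, 1.91, 1.86, 1.84 and 1.83 in Gja9_het, and 2.30, 2.14, 0.65 and 0.63 in wildtype. Again the first wildtype array was above and the second below all samples of the other genotypes, with a difference of 0.43 ± 0.39 in Gja9_het. Eno3, the muscle enolase, was dim, with -3.47, -3.42, -2.53 and -2.61 in Gja9_null, -2.34, -2.16, -2.36 and -2.34 in Gja9_het, and -2.20, -2.25, -2.72 and -2.94 in wildtype. Gja9_null was lowest on its first array, and the difference was -0.71 ± 0.37 against Gja9_het (adjusted p = 0.388) and -0.48 ± 0.37 against wildtype.

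The other 8 glycolytic genes differed in Gja9_null against wildtype by -0.49 (Pfkfb3, which makes the activator of phosphofructokinase) to 0.41 (Ldhb). Gapdh, often used as a loading control, differed by -0.17 ± 0.35, with 2.63, 2.78, 3.88 and 3.92 in Gja9_null, 3.30, 3.37, 3.36 and 3.46 in Gja9_het, and 3.42, 3.34, 3.59 and 3.53 in wildtype. Its 2 Gja9_null arrays lay on either side of all other samples. Hk1, the main brain hexokinase, differed by 0.19, Aldoa by less than 0.01, and the 3 phosphofructokinase genes Pfkp, Pfkl and Pfkm by 0.09, -0.07 and -0.18. Several of these genes have many processed pseudogenes or close isozymes, which a cDNA clone may not separate.

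Of the pyruvate dehydrogenase complex, Pdha1 (the catalytic alpha subunit) and Pdhx (which anchors another component) were measured. Pdha1 had 0.77, 1.04, 1.26 and 1.42 in Gja9_null, 0.68, 0.77, 1.15 and 1.29 in Gja9_het, and 0.89, 0.97, 0.91 and 0.94 in wildtype. The samples of all genotypes overlapped, and the differences were 0.20 ± 0.30 in Gja9_null against wildtype, 0.05 ± 0.30 in Gja9_het against wildtype and 0.15 ± 0.30 in Gja9_null against Gja9_het. Pdhx had -2.85, -2.27, -1.30 and -1.35 in Gja9_null, -1.16, -1.05, -1.04 and -0.96 in Gja9_het, and -0.98, -1.07, -1.48 and -1.60 in wildtype. On its first array Gja9_null stood lowest, and it differed by -0.66 ± 0.52 from wildtype and by -0.89 ± 0.52 from Gja9_het, with adjusted p of 0.681 and 0.436. The Gja9_het difference was 0.23 ± 0.52.

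Fatty acid oxidation genes lay mostly above 0, unlike the citrate cycle genes, in Gja9_null against wildtype, with 9 of 10 above 0 and a median of 0.20. They had a median of 0.15 against Gja9_het, with 7 of 10 above 0, and of 0.11 in Gja9_het against wildtype. Of all features, 58.9%, 63.1% and 45.6% lay below 0 in these comparisons, in the order given. Again 0 of the 10 genes were called or had an unadjusted p under 0.05, and whether the 2 groups of genes differ from each other was not tested.

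Hadh, the short-chain 3-hydroxyacyl-CoA dehydrogenase, had -1.0, -1.06, -1.84 and -1.90 in Gja9_null, -2.47, -2.39, -1.71 and -1.62 in Gja9_het, and -2.22, -2.43, -1.90 and -1.86 in wildtype. Its first Gja9_null array was above all others and the second at the top of the wildtype range, for a difference of 0.65 ± 0.37 (adjusted p = 0.528). Acad9, an acyl-CoA dehydrogenase that also helps assemble complex I of the respiratory chain, had -1.13, -1.14, -1.24 and -1.09 in Gja9_null, -1.57, -1.69, -1.27 and -1.23 in Gja9_het, and -1.25, -1.35, -1.90 and -1.98 in wildtype. All Gja9_null samples exceeded all wildtype samples, with the nearest at -1.24 and -1.25, and the difference was 0.47 ± 0.31 (adjusted p = 0.614). The medium-chain dehydrogenase gene Acadm had -1.04, -0.93, -1.40 and -1.24 in Gja9_null, -2.35, -2.41, -1.31 and -1.55 in Gja9_het, and -1.26, -1.19, -1.25 and -1.48 in wildtype. Its first Gja9_het array was below all other samples, and the differences were 0.75 ± 0.40 in Gja9_null against Gja9_het (adjusted p = 0.396) and -0.61 ± 0.40 in Gja9_het against wildtype. The long-chain dehydrogenase gene Acadl had -0.63, -0.59, -1.10 and -0.98 in Gja9_null, -1.86, -2.04, -1.10 and -1.08 in Gja9_het, and -1.26, -1.38, -1.04 and -1.29 in wildtype. The same Gja9_het array was lowest, with differences of 0.69 ± 0.37 (adjusted p = 0.396) and -0.27 ± 0.37.

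Of the remaining genes of this group, Hadha and Hadhb encode the 2 subunits of the mitochondrial trifunctional protein, and differed in Gja9_null against wildtype by 0.38 ± 0.45 and 0.11 ± 0.35. Cpt1a and Cpt1c, carnitine palmitoyltransferases of which the second is enriched in neurons, differed by 0.10 ± 0.27 and 0.26 ± 0.44. Acadvl was at 0.01, and Acadsb, the 1 gene of the group below 0, at -0.10.

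**Figure D3:**
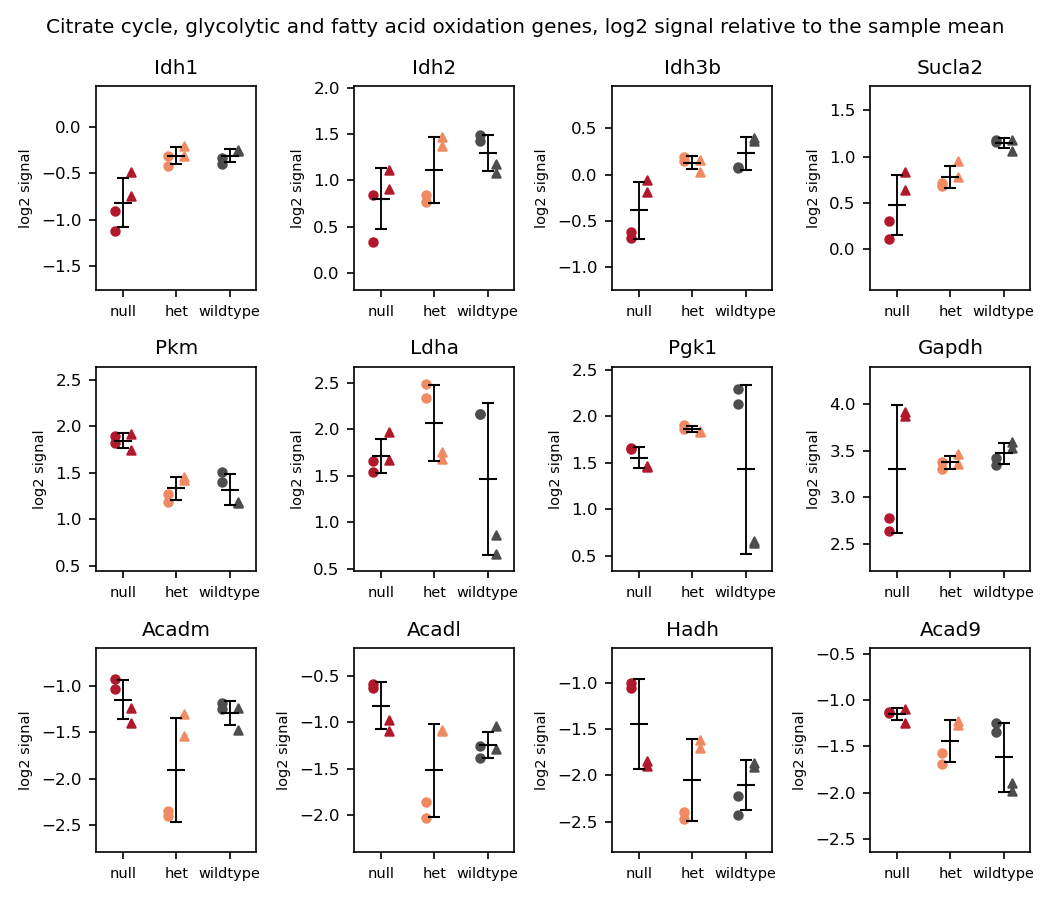
Log2 signal relative to the sample mean (vertical axis, own scale in each panel) of 4 citrate cycle genes (top row), 4 glycolytic genes (middle) and 4 fatty acid oxidation genes (bottom) in null (red), het (orange) and wildtype (grey) samples, with circles for samples 1 and 2, triangles for samples 3 and 4 and black bars for the mean ± SD. Null points of Pkm, from 1.75 to 1.92, lie above all others, whereas those of Gapdh split by array on either side of the other samples.

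Acyl-CoA synthetases and thioesterases, which activate fatty acids and release them again, had 7 of 8 differences below 0 in Gja9_null against wildtype (median -0.32) and 8 of 8 against Gja9_het (median -0.39). Gja9_het against wildtype had a median of 0.08. Of all features, 58.9% lay below 0 in Gja9_null against wildtype and 63.1% in Gja9_null against Gja9_het. After local centring the median against wildtype turned to 0.10 in Gja9_null, with 3 of 8 below 0, and that against Gja9_het was -0.08, with 5 of 8 below 0. None of the 8 was called, and 1 (Acsl5) had an unadjusted p under 0.05 in each comparison of Gja9_null. Of all features, 9.22% were lower at this threshold against wildtype and 11.3% against Gja9_het. Acsl5, a long-chain synthetase, had -0.75, -0.96, -0.32 and -0.38 in Gja9_null, 0.15, 0.11, 0.14 and 0.00 in Gja9_het, and 0.34, 0.22, 0.06 and 0.07 in wildtype. Gja9_null samples lay below all others, by -0.77 ± 0.29 against wildtype (adjusted p = 0.324) and -0.70 ± 0.29 against Gja9_het (adjusted p = 0.274). Acot13, a thioesterase, had -1.79, -1.99, -0.90 and -1.15 in Gja9_null, -1.14, -1.47, -0.74 and -0.89 in Gja9_het, and -0.88, -1.20, -0.98 and -1.14 in wildtype. Gja9_null was low on its first array and near wildtype on its second, for a difference of -0.41 ± 0.32 (adjusted p = 0.672), which was 0.39 after local centring and 0.02 without the first Gja9_null array.

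Acsf3, a mitochondrial malonyl-CoA synthetase, had -0.48, -0.53, -0.74 and -1.15 in Gja9_null, 0.26, 0.15, -0.51 and -0.68 in Gja9_het, and -0.67, -0.92, -0.50 and -0.71 in wildtype. The first Gja9_het array stood above the rest, with a difference of 0.51 ± 0.35 in Gja9_het against wildtype and -0.53 ± 0.35 in Gja9_null against Gja9_het. Acss2, which makes acetyl-CoA from acetate outside mitochondria, had -2.64, -2.29, -1.71 and -1.64 in Gja9_null, -1.82, -1.78, -1.84 and -1.94 in Gja9_het, and -2.29, -1.97, -2.44 and -2.35 in wildtype. All Gja9_het samples exceeded all wildtype samples, by 0.42 ± 0.39. Acsbg1, a very-long-chain synthetase enriched in glia, had the widest array gap of the enzyme genes in Gja9_null, at 2.17, and a difference of -0.26 ± 0.54 against wildtype, which was 0.61 after local centring (unadjusted p = 0.0198). The others were Acsl4 (-0.43), the brain thioesterase Acot7 (-0.38) and the acetoacetyl-CoA synthetase Aacs (-0.23).

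The 5 desaturase and elongase genes had medians of -0.15 in Gja9_null against wildtype, 0.02 in Gja9_het against wildtype and -0.25 in Gja9_null against Gja9_het, with 0 called. After local centring these were 0.0017, -0.11 and 0.19, each with the sign turned. In Gja9_null against wildtype, where 9.22% of all features were lower at an unadjusted p under 0.05, 1 of the 5 genes was. This was Fads1, the delta-5 desaturase of polyunsaturated fatty acids, with -1.61, -1.67, -0.44 and -0.56 in Gja9_null, -0.40, -0.44, -1.10 and -1.15 in Gja9_het, and -0.19, -0.29, -0.36 and -0.31 in wildtype. All wildtype samples were above all Gja9_null and Gja9_het samples, by -0.78 ± 0.36 (adjusted p = 0.423) and -0.48 ± 0.36 (adjusted p = 1). Both Fads1 clones gave negative differences, -0.88 and -0.68 in Gja9_null and -0.58 and -0.39 in Gja9_het. Elovl2, which lengthens precursors of docosahexaenoic acid, had -2.32, -1.84, -2.68 and -2.37 in Gja9_null, -1.36, -1.27, -1.97 and -1.67 in Gja9_het, and -1.65, -1.64, -1.71 and -1.80 in wildtype. Gja9_null lay below wildtype by -0.60 ± 0.42 and differed from Gja9_het by -0.73 ± 0.42. Elovl5, an elongase of polyunsaturated fatty acids, had 0.00, 0.07, -0.39 and -0.34 in Gja9_null, -1.07, -0.93, -0.63 and -0.60 in Gja9_het, and -1.0, -1.13, 0.05 and 0.03 in wildtype. Gja9_null exceeded Gja9_het by 0.64 ± 0.36 (adjusted p = 0.415), whereas the second wildtype array was as high as Gja9_null and the first as low as Gja9_het. In Gja9_null against wildtype Elovl6 was at 0.13 and Fads3 at -0.15.

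Hmgcs1, the HMG-CoA synthase of cholesterol synthesis, had -0.35, -0.64, -0.03 and 0.24 in Gja9_null, 0.60, 0.51, 0.36 and 0.17 in Gja9_het, and 0.66, 0.64, 0.01 and -0.03 in wildtype. Gja9_null was lowest on its first array and the rest overlapped, with differences of -0.51 ± 0.41 in Gja9_null and 0.09 ± 0.41 in Gja9_het against wildtype, and -0.60 ± 0.41 in Gja9_null against Gja9_het. Its promoter is 1 of the 4 above with a sterol response element. Of the others, Ces3b was lower and Aldh9a1 and Pkm higher in Gja9_null against wildtype. Cyp51, of the same pathway, differed in the same direction as Hmgcs1 in both comparisons of Gja9_null. Fdft1, squalene synthase, differed in the other direction, by 0.63 ± 0.30 against wildtype and 1.03 ± 0.30 against Gja9_het. A link between the motif and these differences was not tested.

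Aldehyde dehydrogenase genes had medians of 0.11, 0.01 and 0.12 in the comparisons of Gja9_null with wildtype, Gja9_het with wildtype and Gja9_null with Gja9_het, with 0 called and 0 at an unadjusted p under 0.05. Aldh2, the mitochondrial enzyme that clears acetaldehyde, had -0.53, -0.52, -0.55 and -0.51 in Gja9_null, -1.27, -1.32, -0.99 and -0.89 in Gja9_het, and -0.94, -1.34, -0.43 and -0.71 in wildtype. Gja9_null samples were nearly equal and above all Gja9_het samples, by 0.59 ± 0.40 (adjusted p = 0.499), but within the wildtype range. Aldh9a1, which acts in carnitine and aminobutyrate synthesis, had -0.70, -0.57, -1.33 and -1.35 in Gja9_null, -1.34, -1.34, -1.07 and -1.10 in Gja9_het, and -1.25, -1.33, -1.40 and -1.73 in wildtype. The first Gja9_null array was high, and the differences from wildtype were 0.44 ± 0.36 in Gja9_null and 0.22 ± 0.36 in Gja9_het. Aldh18a1, an enzyme of proline synthesis, had -1.33, -1.35, -1.50 and -1.55 in Gja9_null, -0.77, -0.74, -1.06 and -1.08 in Gja9_het, and -0.63, -0.61, -1.14 and -1.34 in wildtype. Gja9_null lay below all Gja9_het samples, by -0.52 ± 0.30, and differed from wildtype by -0.50 ± 0.30. Aldh6a1, of valine breakdown, exceeded both other genotypes without overlap in Gja9_null, by 0.41 ± 0.43 and 0.49 ± 0.43, and its 2 clones had the same sign. The others were Aldh3a2 (0.11 in Gja9_null against wildtype), the retinal dehydrogenase Aldh1a1 (-0.23) and Aldh1b1 (-0.26).

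Of the genes matched by symbol only, Pga5 had -4.41, -4.62, -2.77 and -3.13 in Gja9_null, -2.66, -2.51, -2.25 and -2.47 in Gja9_het, and -3.19, -3.13, -2.25 and -2.42 in wildtype. The first Gja9_null array was far below all others, and the differences were -0.98 ± 0.50 in Gja9_null against wildtype (adjusted p = 0.468), -1.26 ± 0.50 against Gja9_het (adjusted p = 0.262) and 0.27 ± 0.50 in Gja9_het against wildtype. Pgam5 had -1.97, -1.90, -0.46 and -0.71 in Gja9_null, -1.26, -1.30, -1.75 and -1.81 in Gja9_het, and -1.07, -0.95, -1.08 and -1.24 in wildtype. Its Gja9_null arrays lay on both sides of wildtype, with differences of -0.18 ± 0.41 in Gja9_null and -0.44 ± 0.41 in Gja9_het against wildtype, and 0.27 ± 0.41 in Gja9_null against Gja9_het.

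Counted over all roles, Gja9_null samples lay below all wildtype samples in 12 of the 67 genes (17.9%, beside 15.6% of all features) and above them in 3 (4.48%, beside 7.52%). The 3 above were Acad9, Aldh6a1 and Pkm. Gja9_null lay below all Gja9_het samples in 18 genes (26.9%, beside 22.5%) and above them in 4 (5.97%, beside 10.2%), which were Aldh2, Aldh6a1, Elovl5 and Pkm. Gja9_het lay above all wildtype samples in 3 genes (Acsbg1, Acss2 and Hk1, beside 8.67% of all features) and below them in 3 (Fads1, Pgam5 and Sucla2, beside 6.09%).

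Gaps between the arrays of a genotype were wider than those between the colours of an array. Samples were assigned to arrays by how closely their values moved together, so this order follows from the assignment and is not a finding. The median gap between the 2 array means of a gene was 0.44 in Gja9_null, 0.32 in Gja9_het and 0.32 in wildtype, against 0.14, 0.10 and 0.09 between colours. Gaps above 1 occurred in 11, 3 and 8 genes of the 67 in the same order. The median deviation of the 67 genes was -0.29 and -0.06 on the first and second Gja9_null arrays, 0.04 and 0.15 on the Gja9_het arrays and 0.06 and 0.02 on the wildtype arrays. With 2 arrays in each genotype, an exact two-sided permutation test over arrays cannot go below p = 0.333.

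Clones of the same gene often disagreed. In the 27 genes with several clones, the median range of their differences was 0.40 in Gja9_null against wildtype, 0.66 in Gja9_het against wildtype and 0.65 in Gja9_null against Gja9_het, and clones had opposite signs in 11, 21 and 13 genes. Aacs showed the widest range. Its clones differed by -1.27 ± 0.33 and 0.82 ± 0.42 in Gja9_null against wildtype, so its mean near -0.23 describes neither. The 6 Idh3a clones ran from -0.73 ± 0.47 to 0.53 ± 0.35 in the same comparison, and the 5 Pdha1 clones from -0.92 ± 0.47 to 0.76 ± 0.39. Those of Mdh2 stood at -1.09 ± 0.67 and 0.49 ± 0.40. Against wildtype, the 2 Idh1 clones were both below 0 in Gja9_null (-0.75 ± 0.44 and -0.26 ± 0.38) but of opposite sign in Gja9_het (0.49 ± 0.44 and -0.49 ± 0.38).

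**Figure D4:**
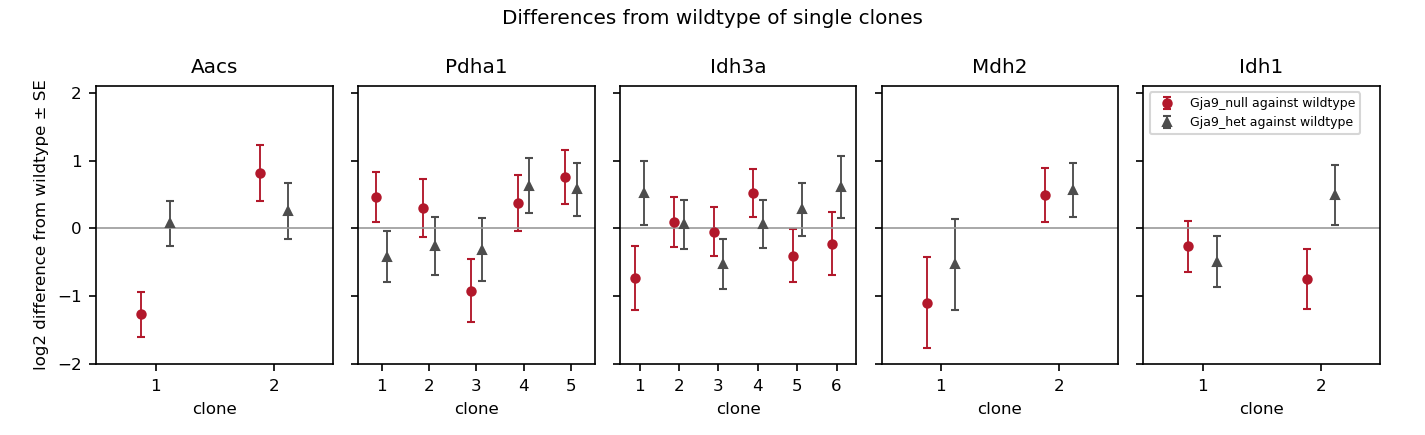
Log2 difference from wildtype, with its standard error (vertical axis), of each clone of the 5 genes whose clones disagreed most (panels, clones numbered on the horizontal axis), for Gja9_null (red circles) and Gja9_het (grey triangles). The Aacs clones lie at -1.27 and 0.82 in Gja9_null.

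Local centring turned the sign of 15 of the 67 differences in Gja9_null against wildtype (13 of them from below to above 0), of 18 in Gja9_het against wildtype and of 17 in Gja9_null against Gja9_het. The median of all 67 genes became 0.00 in Gja9_null against wildtype, 0.02 in Gja9_het against wildtype and -0.02 in Gja9_null against Gja9_het. Citrate cycle medians moved close to 0, and those of the acyl-CoA genes and of the desaturases and elongases turned, as given above. The median of the 2 pyruvate dehydrogenase genes turned to 0.21 in Gja9_null against wildtype and 0.11 against Gja9_het, and that of glycolysis to -0.02 in Gja9_null against wildtype. In Gja9_het against wildtype, fatty acid oxidation turned to -0.03. The P450 medians were -0.49 in Gja9_null against wildtype, 0.25 in Gja9_het against wildtype and -0.93 in Gja9_null against Gja9_het. Ces2a and Cyp3a11 were then the called genes in Gja9_null against Gja9_het, and Ces2a in Gja9_null against wildtype. Of all 9514 features, 89 were then called lower and 45 higher in Gja9_null against Gja9_het, and 23 and 33 in Gja9_null against wildtype.

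**Figure D5:**
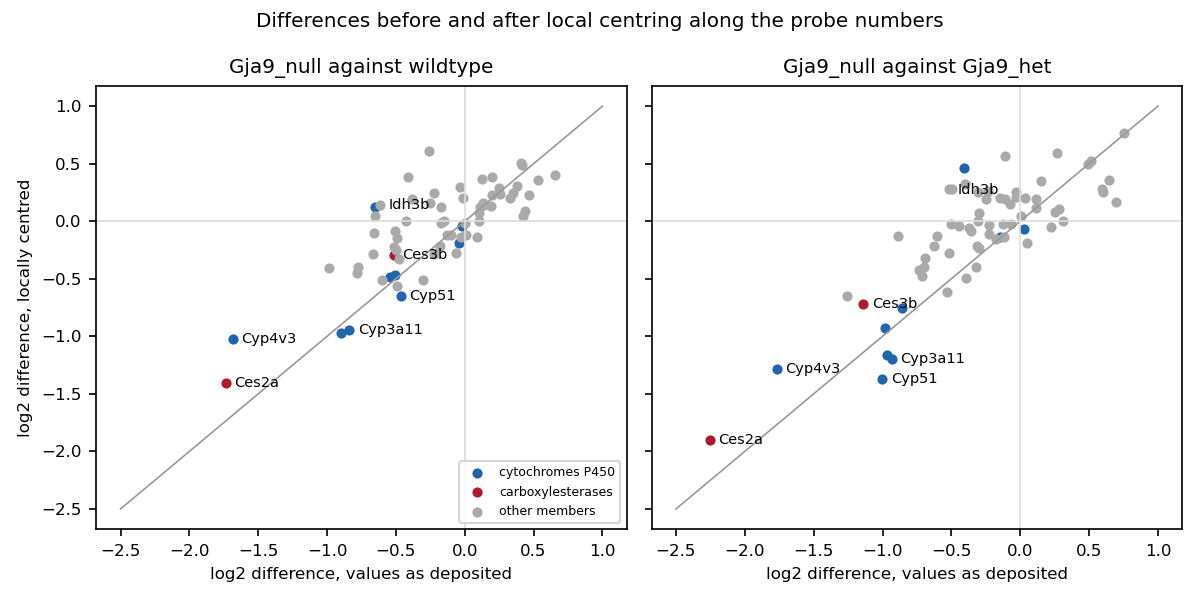
Log2 difference of each of the 67 genes after local centring along the probe numbers (vertical axis) against that in the values as deposited (horizontal axis), for Gja9_null against wildtype and Gja9_null against Gja9_het, with P450 genes in blue, carboxylesterases in red and a line where both are equal. Ces2a lies at -2.25 before and -1.90 after centring in the right panel, and Idh3b moves from below to above 0.

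Genes of the same pathways that the symbol patterns did not take gave 0 calls in all 3 comparisons. Of 115 such genes listed, 73 were measured. At an unadjusted p under 0.05, 1 was lower and 3 higher in Gja9_null than in wildtype, or 1.37% and 4.11%, beside 9.22% and 2.41% of all features. In Gja9_het against wildtype 0 were lower and 2 higher (2.74%, beside 1.67%), and in Gja9_null against Gja9_het 1 was lower and 1 higher, each 1.37% beside 11.3% and 3.64%. In the values as deposited, 14 other genes of the citrate cycle and its partners had a median of 0.15 in Gja9_null against wildtype, from -0.43 to 1.11. Whether they differ from the citrate cycle genes above was not tested. The smallest unadjusted p among them were those of Fh1, fumarate hydratase (1.11 ± 0.50, and 1.22 ± 0.50 in Gja9_het against wildtype), and Sdhb, a succinate dehydrogenase subunit (0.74 ± 0.33). The 19 measured genes of glucose entry, the pentose phosphate path and the rest of glycolysis had a median of -0.10, with Pgls, of the pentose phosphate path, at -1.37 ± 0.44 and the glucose transporter gene Slc2a1 at 0.49 ± 0.27. Fatty acid synthesis and the rest of oxidation had a median of -0.03 over 19 genes. Fabp7, a fatty acid binding protein of radial glia, stood at 1.66 ± 0.67 in Gja9_null and 1.75 ± 0.67 in Gja9_het, both against wildtype. Slc25a20, the carnitine carrier, was at -0.80 ± 0.46 in Gja9_null against wildtype.

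Over 12 sterol and ketone body genes the median was -0.07 in Gja9_null against wildtype. Fdft1, squalene synthase, was at 1.03 ± 0.30 in Gja9_null against Gja9_het (adjusted p = 0.148), opposite to Cyp51 and Hmgcs1 of the same pathway, and Idi1 was at -0.69 ± 0.36. The 9 P450 partners and other detoxification genes had a median of -0.17 in Gja9_null against wildtype, with Adh5 at -0.59 ± 0.35 and Akr1a1 at -0.49 ± 0.32, and of -0.02 against Gja9_het, with cytochrome b5 (Cyb5a) at -0.38 ± 0.32. Fabp7 belongs to the astrocyte marker list too, whose 5 measured genes of 11 summed to between 13.9 and 16.5 times the sample mean signal in Gja9_null, 9.35 and 12 in Gja9_het and 8.89 and 12.2 in wildtype. Of these 5 genes 0 were called, and 2 (Slc1a3 and Fabp7) had an unadjusted p under 0.05 in Gja9_null against wildtype, as Fabp7 did in Gja9_het against wildtype and Slc1a3 in Gja9_null against Gja9_het. The 5 genes did not move together. Their differences in Gja9_null against wildtype ran from -0.24 to 1.66, with a median of 0.36. The median was -0.27 in Gja9_het against wildtype and 0.19 in Gja9_null against Gja9_het. The 7 measured neuron markers of 13 had a median of -0.31 in Gja9_null against wildtype, with 0 called and 1 (Nefm) at an unadjusted p under 0.05. Of 8 oligodendrocyte markers, the 2 measured were the myelin genes Mbp (-0.64 ± 0.92) and Cnp (-0.69 ± 0.70) in Gja9_null against wildtype. Their summed level was 6.30 to 13.7 in Gja9_null, 8.35 to 15.3 in Gja9_het and 12.9 to 17.2 in wildtype, with overlap. Among 3 measured erythroid markers, Alas2, the haem synthesis enzyme of red cell precursors, was at -1.45 ± 0.34 in Gja9_null against wildtype (adjusted p = 0.107) and -1.71 ± 0.34 against Gja9_het (adjusted p = 0.0576), while Hbb-b1, a globin gene, was at 0.39 ± 0.41 and 0.73 ± 0.41. Microglial, endothelial, choroid plexus and meningeal markers gave medians of -0.25, 0.05, 0.50 and 0.15 in Gja9_null against wildtype, over 3, 4, 1 and 4 measured genes, with 0 called. The 1 choroid plexus gene is Ttr, which was counted among the liver markers too. The part of all these markers in the differences of the enzyme genes was not tested.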

How the data were processed

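Total RNA from whole brain, 60 micrograms per sample, was labelled with Cy5 or Cy3 and hybridised to spotted cDNA arrays, per the labels' protocols. The deposited values are log2 signals relative to each sample's mean signal, a scale settled from the values. No label or file header used here states the background correction, dye correction, probe filter or genome build. Where the labelling text of wildtype 3 and Gja9_null 1 named another dye than the label field, the label field was kept. Replicates are called biological in the design text, but the labels do not say that each is a separate animal. If they are not, p-values measure only the spread between these samples, which may be technical.

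Of 28704 probes, 13443 had values in every sample and 15261 in none. Of the measured probes 10356 have 1 gene, 560 several and 2527 none, and 10263 were matched by gene number to RefSeq symbols. Clones of a gene were averaged, for 9514 features. Array sharing was read from the values (correlation across probes of samples 1 minus 3 with samples 2 minus 4: 0.933 in Gja9_null, 0.919 in Gja9_het, 0.940 in wildtype). Deviations of same-numbered samples from their group means correlated at 0.113 to 0.228 between Gja9_het and wildtype, beside -0.224 to 0.139 for other numbers. These numbers may therefore pair samples, by the values and not the labels. Same-numbered samples also share their dye and array order, so a pairing is not established, and the main fit did not use it. Same-numbered samples of Gja9_null with wildtype (-0.094 to -0.054) and with Gja9_het (0.022 to 0.067) were not taken as paired. limma 3.58.1 in R 4.3.3 fitted genotype and dye over all 12 samples, with the array as a random block (consensus correlation 0.927), lmFit and eBayes, two-sided, Benjamini-Hochberg over all features. The prior gave 6.53 of 14.5 degrees of freedom. The fit and local centring were tested on simulated data.

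Members and gene lists were chosen with earlier results of these data known. The genes given with values in every sample are those called and, of each role, the 2 of smallest unadjusted p in each comparison (34 genes), and other genes are given as differences. Gapdh is shown in every sample beyond this rule, as is the account of Cyp2f2, Cyp4b1-ps2 and Aldh6a1, chosen after their values were seen. Pgam5 and Pga5 were kept apart from the glycolytic genes after the patterns were applied. Alternatives covered the array block, dye, replicate number, normalization, local centring over 50 probe numbers on either side, dim probes, clones, the spread model, the genotypes fitted, probe stretches, the first Gja9_null array, single samples and the threshold. Data on other connexin genotypes are not analysed here. The number of arrays limits the precision.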

Additional observations from a re-analysis of the deposited data

Results flagged for a closer look

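Of 102 groups of 4 samples (34 genes in 3 genotypes), 2 held a sample whose gap to its nearest neighbour was above Dixon's critical value for 4 samples, measured as a share of the group's range. With 4 independent samples, chance would flag about 1 in 20 groups. Here the 4 samples of a group share 2 arrays, so that rate does not apply. Eno3 in Gja9_het had 1 sample at -2.16 (sample 2), with a share of 0.862 of a range of 0.21 log2 units. Sucla2 in wildtype had 1 sample at 1.06 (sample 3), with a share of 0.835 of a range of 0.12. Both ranges are narrower than the median gap between arrays of those genotypes.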

How the results depend on the processing

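In Gja9_null against wildtype, 0 of the 67 genes were called, but 9 were without the array block, 1 with a replicate block and 1 after local centring. Of all 9514 features in this comparison, 1109 were called lower and 355 higher without the array block. With the replicate block 26 were called lower and 19 higher, and after local centring 23 and 33. The replicate block took the replicate number in place of the dye. Ces2a was the gene called with it in this comparison (adjusted p = 0.0352). The replicate block changed no other call of the genes described in full, including those of Gja9_het against wildtype, where the numbers may pair samples by their values. Of 4 Gja9_null samples, 0 correlated best with their own number in wildtype and 3 in Gja9_het. Of all 9514 features in Gja9_null against Gja9_het, 1532 were called lower and 587 higher without the array block. After local centring 89 were called lower and 45 higher. Among the 67 genes in that comparison, the count of 1 became 17 without the array block and 2 after local centring. It was 0 with the colours of each array averaged, after median centring, after quantile normalization, without the dimmest 25% of probes, with each probe tested alone, with a trended and robust spread, without the last 3 stretches, without the first Gja9_null array and with only the 2 genotypes compared. Leaving out single samples gave 0 to 1. In Gja9_het against wildtype the count was 0 under all alternatives run. The clone of Ces2a is among those removed with the dimmest probes and with the last stretches.

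The median of the 67 genes in Gja9_null against wildtype was -0.0136 after quantile normalization, 0.0017 after local centring and -0.0378 without the first Gja9_null array. In Gja9_null against Gja9_het it was -0.13 after median centring, -0.12 after quantile normalization, -0.024 after local centring, -0.15 without the dimmest 25% of probes and -0.13 without the first Gja9_null array. Median centring put the median of all features in that comparison at -0.06 and quantile normalization at -0.01, beside -0.17 in the values as deposited. Each of the 34 genes named by the rule was recomputed in the comparisons that named it, 63 differences in all. Among these, signs turned in Gja9_null against wildtype for Acot13 (0.39 after local centring and 0.022 without the first Gja9_null array), Ces3b (0.00551 after quantile normalization), Eno3 (0.075 after quantile normalization), Idh3b (0.14 after local centring), Pdhx (0.046 after local centring) and Pgam5 (0.12 after local centring and 0.50 without the first Gja9_null array). They also turned for Hmgcs1 in Gja9_het against wildtype (-0.10) and Idh3b in Gja9_null against Gja9_het (0.28), both after local centring. Over all 67 genes, local centring turned 15 signs in Gja9_null against wildtype, 18 in Gja9_het against wildtype and 17 in Gja9_null against Gja9_het. Of these, 2 then had an unadjusted p under 0.05, Acsbg1 in Gja9_null against wildtype (0.61) and Cyp4b1-ps2 in Gja9_null against Gja9_het (0.46), and Acot7 (0.57) and Acot13 (0.32) turned in the second of these comparisons too. Other settings were not counted over all 67 genes. The cause was not tested. How far a dim clone lies above background is not known from these values.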
